A study of Caenorhabditis elegans with 4 samples.

Results

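The col family is a large group of cuticle collagen genes of the nematode Caenorhabditis elegans, and its transcripts are described here as they were recovered by CLIP of the protein MSTR-1. Members were the protein-coding genes of assembly WBcel235 whose symbol is col- followed by a number, 156 of 19983 protein-coding genes, and every deposited peak that shared at least 1 bp with one of them on either strand. The MSTR-1 peak list gave 210 such peaks of 2664 over 79 col genes, and the N2 peak list 38 of 310 over 26 col genes. The other 77 col genes had no MSTR-1 peak. The study sequenced 4 libraries made by eCLIP, in which RNA crosslinked to a protein by ultraviolet light is purified with that protein and read where it was crosslinked. All came from lysates of whole young adult worms kept at 25 °C on standard NGM plates and irradiated at 1.2 mJ/cm2. The first 2 groups carry the allele F22D6.2(on49[MSTR-1::3xFLAG]) I, in which the endogenous gene for MSTR-1 bears a FLAG tag. They are the MSTR-1 CLIP, with 2 libraries from biological replicates, and the size-matched input, with 1 library. The third group is 1 CLIP library from N2, the untagged laboratory wild type. The deposited headers do not tell the MSTR-1 replicates apart, and here library A is the first of their columns and library B the second.

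The cuticle is the exoskeleton of the worm, a matrix of collagens secreted by the epidermis beneath it and replaced at each moult. Nematode cuticle collagens are short proteins with a triple-helical core of Gly-X-Y repeats, made as precursors whose prolines are hydroxylated and whose chains are trimmed and cross-linked outside the cell. The family is known for its many similar genes, often found side by side in the genome, and for synthesis timed to the moults. Young adults have completed the last moult. Of 6 epidermal marker genes 4 had MSTR-1 peaks (col-19, rol-6, bli-1 and nlp-29), while dpy-7 and lin-26 had none. Worms were whole, so 4 of 4 body wall muscle, 4 of 4 sperm, 3 of 5 intestinal and 1 of 4 oocyte markers had peaks too. Summed over their peaks, epidermal markers had 767 and 751 scaled reads in libraries A and B against 659 in the input. Most of that sum is col-19, itself a col gene, with 691.6 and 688.6 against 634.6. Apart from it, rol-6 had 28.2 and 33.4 against 10.1, bli-1 23.9 and 13.1 against 5.77, and nlp-29 22.8 and 16.4 against 8.65. Muscle markers had 3907 and 3593 against 2383, and intestinal markers 1025 and 949 against 1641. Sperm markers had 101 and 70.8 against 37.5, and oocyte markers 13.03 and 21.6 against 17.3. The part of these tissues in the col values was not tested.

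On the authors' scaling col transcripts stood above the input at a larger share of their peaks than transcripts at large, and with column totals as the scale at a small share. Values are scaled reads, the reads of a peak divided by 1 size factor per library, and the mean fold of a peak or gene is the mean of both CLIP libraries over the input. Of the 210 col peaks, 113 passed as higher, 3 as lower and 94 did not pass (limma, Benjamini-Hochberg adjusted p under 0.05 over all 2664 peaks). That is 53.8% higher, against 12.7% of all peaks, and 1.43% lower, against 1.76%. edgeR on the recovered reads called 97 col peaks higher (46.2%, against 10.5%) and 1 lower (0.476%, against 1.24%). Both CLIP libraries lay above the input at 168 col peaks (80%, against 53% of all peaks) and both below it at 30 (14.3%, against 22%), with 12 peaks split. The mean fold of a col peak had a median of 2.49 and quartiles of 1.33 and 4.34, against a median of 1.48 over all peaks. The direction rests on the scale: with each library's column total as its scale, 11 col peaks were higher (5.24%, against 2.14% of all peaks) and 105 lower (50%, against 51.1%), and the median log2 of col peaks was -0.77, against -1.48 over all peaks. The distance between these medians was 0.78 with the authors' size factors, 0.76 with TMM, 0.76 with DESeq2's size factors and 0.71 with column totals. Ribosomal RNA took 91.995% of library A's reads inside peaks, 92.4% of library B's and 68.6% of the input's, and those reads enter a column total.

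**Figure D1:**
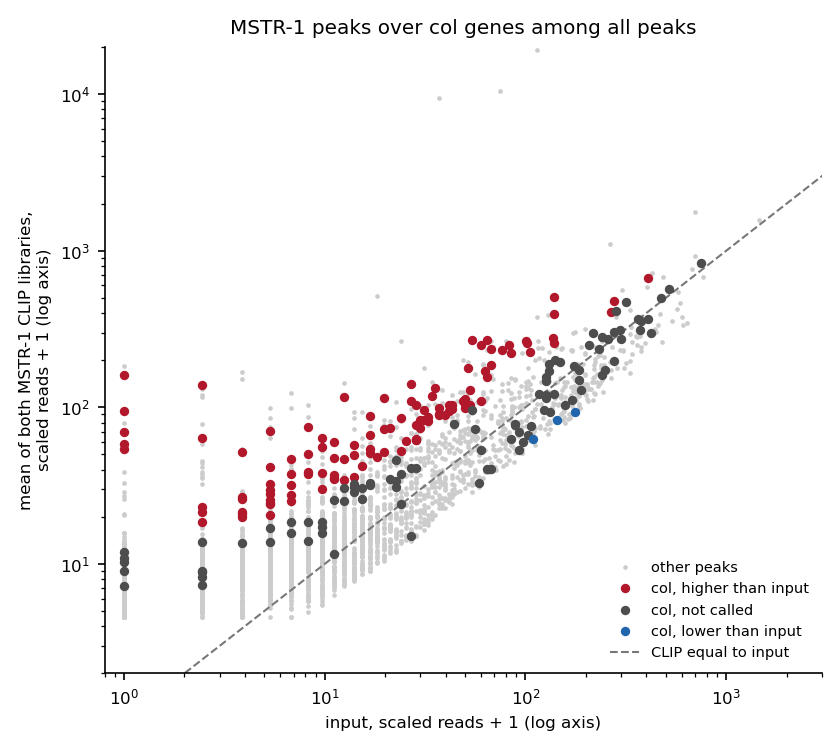
Mean of both MSTR-1 CLIP libraries (vertical, scaled reads + 1, log axis) against the input (horizontal, scaled reads + 1, log axis) for 2664 peaks, with the 210 col peaks coloured by the limma call and other peaks in grey. The 113 col peaks called higher lie above the line of equal values mostly at low and middle input, and the 3 called lower lie at high input; with column totals as the scale 11 col peaks are called higher and 105 lower.

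By gene, 55 of the 79 col genes with a peak had at least 1 peak called higher, 26 had all their peaks called higher, 3 had a peak called lower, and 22 had no call. That is 69.6%, 32.9% and 3.80% with a higher peak, with all peaks higher and with a lower peak, against 12.9%, 6.23% and 2.84% of all 1477 protein-coding genes with an MSTR-1 peak. Only col-181 had a call in each direction. The median over a gene's peaks of log2 CLIP over input, with 1 added to both values, was 1.34 at the middle col gene and 0.60 at the middle gene of all 1477 with a peak. It was above 0 for 64 col genes and below 0 for 15. The middle col gene was at -0.67 with column totals, 0.61 above that of all genes on the same scale. With library A alone the middle col gene stood at 1.35, which was 1.02 above that of all genes, and with library B alone at 1.12, which was 0.53 above. Summed over its peaks, a col gene had a mean fold between 0.593 (col-143) and 74.7 (col-117), with a median of 2.52 against 1.37 over all genes with a peak. Both CLIP libraries lay above the input for 61 genes and both below it for 12, and 6 genes were above it in library A and below it in library B.

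**Figure D2:**
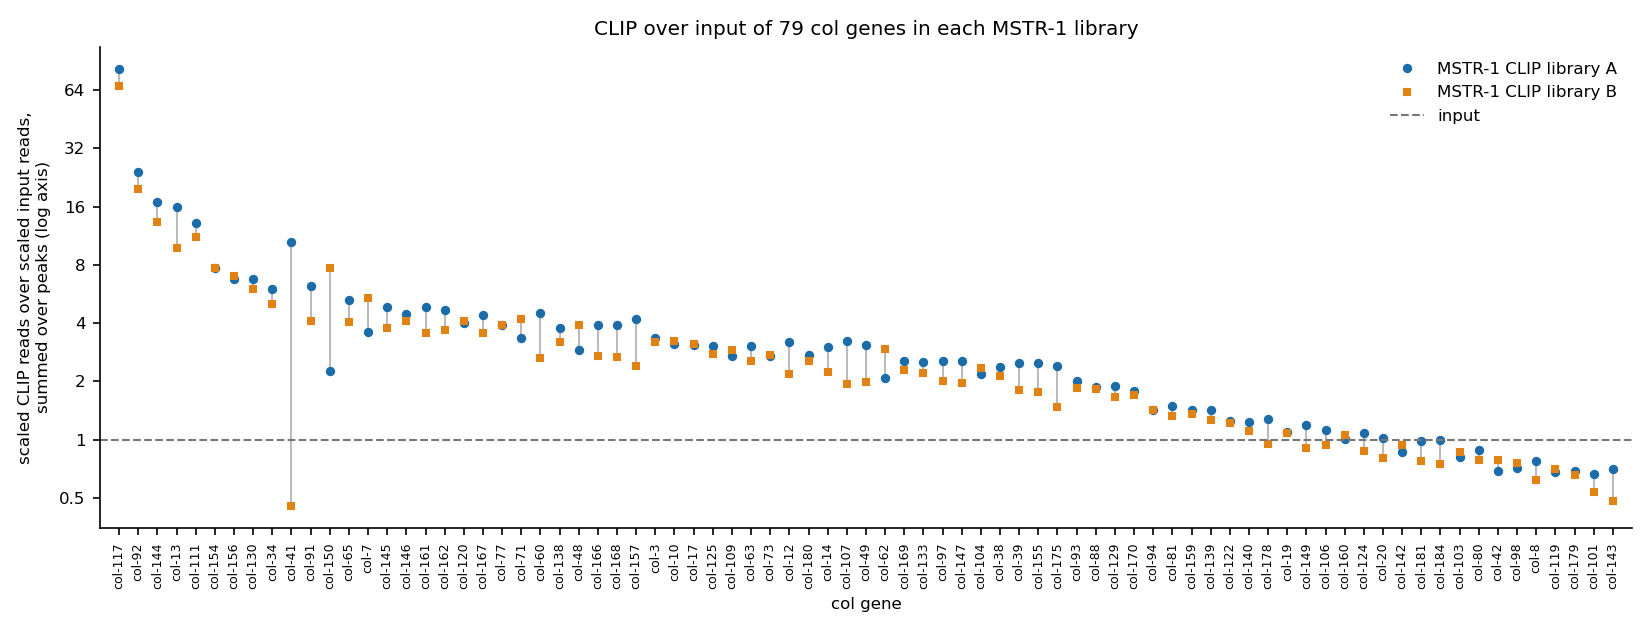
Scaled CLIP reads over scaled input reads, summed over the peaks of each of 79 col genes (log axis), in MSTR-1 CLIP library A (circles) and library B (squares), with genes in order of their mean fold and the input at 1. Of the 79 genes, 61 lie above the input in both libraries and 12 below it in both; with column totals as the scale the middle col gene lies below the input.

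A col gene with peaks had 1 to 6 of them, with a median of 3, and peaks covered between 4.83% and 94.99% of the gene's span, with a median of 55.8%. Most genes had 2 (26 genes) or 3 peaks (33 genes), 7 had 1 and 11 had 4. The gene with 6 peaks was col-159 and that with 5 was col-169. Col peaks were longer and deeper than others, with a median length of 228 nt against 165 nt for all peaks. Their median read counts were 70.5 (library A), 90.5 (library B) and 19 (input), against 15, 24 and 8 over all peaks. Of the 210 peaks, 163 lay over no other gene (88 higher, 3 lower), 47 also lay over another gene, and 3 of these lay over both col-159 and col-160. How reads were counted where genes overlap, and how reads that fit several collagen genes were placed, is not stated in the labels or headers.

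Outside ribosomal RNA, col peaks took a larger share of the reads inside peaks in both CLIP libraries than in the input, and over all reads inside peaks a smaller one. Leaving out ribosomal RNA peaks, col peaks held 11.97% of the reads inside MSTR-1 peaks in library A and 12.5% in library B, against 8.55% in the input. With those peaks kept, the shares were 0.958% and 0.952%, against 2.68% in the input. In bulk samples a low level can mean fewer cells of a type or less RNA per cell, and these cannot be told apart here. With each peak counted once, the 12 col genes with most CLIP reads held 40.4% of library A's col reads, 41.9% of library B's and 46.5% of the input's. These were col-159, col-94, col-140, col-3, col-124, col-160, col-139, col-20, col-122, col-129, col-19 and col-93.

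Per 100 nt of peak, col genes spanned 4.14 to 153 scaled CLIP reads, with a median of 30.99, and 0.596 to 142.4 scaled input reads, with a median of 13.1. The highest CLIP level was that of col-94, with 153 and 152 scaled CLIP reads per 100 nt, against 107 input reads. The gene col-124 had 154 and 125, against 142.4 in the input, so its CLIP libraries lay on either side of the input. The gene col-3 had 142.6 and 136 scaled CLIP reads per 100 nt and 42.5 in the input, which ranked 21st among col genes. For col-3 both libraries lay well above the input, at 3.36-fold and 3.204-fold. The libraries of col-124 spanned the levels of col-3 and of col-94, so col-124 has no order against either.

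Among the 12 genes with most CLIP reads, mean folds ran from 0.914 to 3.28 and no gene reached 4. The gene col-3 had 847 and 1340 CLIP reads and 190 input reads, and a mean fold of 3.28 (95% interval 2.83 to 3.82, from counting error of CLIP and input reads alone, as for every interval of a fold here). Both of its peaks were called higher. The gene col-20 had 803 and 1047 reads, against 591 in the input, and a mean fold of 0.914 (0.833 to 1.004), the lowest of the 12. None of its 4 peaks was called. The remaining genes of the 12 lay between, with mean folds of 1.92 for col-93, 1.78 for col-129, 1.42 for col-94, 1.39 for col-159, 1.34 for col-139, 1.24 for col-122, 1.17 for col-140, 1.09 for col-19, 1.03 for col-160 and 0.980 for col-124. The sum of col-159 includes the 3 peaks it shares with col-160, and its place among the 12 rests on them. Its 3 own peaks, with 600 and 849 CLIP reads and 154 input reads, had a mean fold of 2.72.

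The gene col-19 is the usual marker of the adult epidermis, since it is switched on at the larva-to-adult transition. Its 2 peaks covered 691.6 and 688.6 scaled reads in libraries A and B, against 634.6 in the input. Its first peak (chromosome X, 421750 to 422086) had 108 and 191 reads and 80 in the input, a mean fold of 1.05 (0.818 to 1.36, limma adjusted p = 0.915). Its second peak had 529 and 860 reads and 360 in the input, a mean fold of 1.10 (0.975 to 1.23, limma adjusted p = 0.801). Both peaks also lie over hrg-11.4 and neither was called. Under TMM, DESeq2's size factors and column totals the log2 values of both peaks were negative.

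High folds belonged to col genes with little input. The 19 genes with a mean fold of at least 4 had 0.596 to 10.8 scaled input reads per 100 nt of peak, with a median of 2.10, and a median of 19.3 scaled CLIP reads per 100 nt. The 14 genes with a mean fold under 1 had 22.2 to 142.4 scaled input reads per 100 nt, with a median of 46.9, and a median of 38.8 scaled CLIP reads. The 46 genes between had medians of 37.2 scaled CLIP reads and 14.4 scaled input reads. The input is the divisor of the fold, so a low input raises it by construction. With col peaks split by their input reads into 4 bins of near-equal size, the median mean fold was 6.89, 2.72, 2.43 and 1.05 from the lowest bin to the highest. Other peaks in the same ranges of input had 2.70, 1.01, 0.999 and 0.767. The share called higher was 66.0%, 59.6%, 73.1% and 16.98% for col peaks and 7.94%, 7.54%, 13.7% and 9.72% for other peaks. The difference between col and other peaks was not tested within bins.

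The gene col-117 on chromosome IV had the highest mean fold of the family. Its 3 peaks had 328 and 443 CLIP reads and 3 input reads, a mean fold of 74.7 (25.5 to 363). The peak nearest the low coordinate (chromosome IV, 8822978 to 8823193, listed on the plus strand) had 74 and 90 reads and 3 in the input, a mean fold of 16.1 (5.41 to 78.9). All 3 input reads of the gene lay there. The middle peak (8823202 to 8823386) had 89 and 140 reads and the last (8823411 to 8823735) 165 and 213, with 0 in the input at both. Against 3 input reads the middle peak was at least 21.8-fold higher and the last at least 36.8-fold higher. The limma adjusted p of the 3 peaks was 7.78e-15, 2.60e-33 and 5.44e-55, after a choice made on these same values. Their size rests on a trend of the variance fitted over all peaks, with 2 CLIP libraries and 1 input. Without that trend limma's adjusted p was 0.207, 0.186 and 0.186. With DESeq2's test it was 0.00668, 0.00275 and 0.000753.

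On chromosome III, col-92 had 321 and 435 CLIP reads and 10 input reads, a mean fold of 22.0 (11.9 to 46.0). Its first peak (chromosome III, 10982150 to 10982362) had 62 and 89 reads and 1 in the input, a mean fold of 43.6 (7.70 to 1732). Its last peak (10982663 to 10982914) had 157.4 and 118.6 scaled reads and 1.44 in the input, from 1 read, a mean fold of 95.7 (17.1 to 3791), the highest of any col peak with an input read. Such wide intervals come from a single input read. Each peak of col-92 also lies over dhc-4, within whose span col-92, col-93 and col-94 lie. For these peaks limma's adjusted p was 7.80e-18 and 2.05e-41.

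The gene col-144 on chromosome V had 135 and 176 CLIP reads and 6 input reads, a mean fold of 15.1 (6.87 to 41.55). All 6 input reads lay in its second peak (chromosome V, 9160175 to 9160362), which had 70 and 75 CLIP reads and a mean fold of 7.23 (3.24 to 20.03). Its first peak (9159754 to 9160032) had 65 and 101 CLIP reads and 0 input reads and was at least 15.8-fold higher (limma adjusted p = 1.76e-23). On chromosome X the fourth peak of col-167 (6324190 to 6324442) had 46 and 79 reads and 2 in the input, a mean fold of 17.6 (4.78 to 147, limma adjusted p = 1.40e-11). Each of the peaks named so far for a high fold, except the first of col-117 and the second of col-144, was among the 8 with the highest mean fold of the 183 col peaks with at least 50 CLIP reads. All of them kept a positive log2 under the authors' scaling, TMM, DESeq2's size factors and column totals. Each was still called with edgeR and TMM and with DESeq2's test, but none was called by limma without the trend.

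Neighbouring collagens col-12 and col-13 on chromosome V are known to encode near-identical proteins. Both had 3 peaks, all called higher. The gene col-12 had 557 and 633 CLIP reads and 132 input reads, a mean fold of 2.68 (2.24 to 3.23), and col-13 had 191 and 193 reads and 9 in the input, a mean fold of 12.9 (6.70 to 28.3). Their intervals did not overlap. The peaks of col-12 had even folds, with 120 and 114 CLIP reads against 28 input reads (2.54), 245 and 269 against 58 (2.64) and 192 and 250 against 46 (2.81). Those of col-13 did not, with 64 and 66 CLIP reads against 9 input reads at the first (4.34), 68 and 62 against 0 at the second (at least 13.2-fold) and 59 and 65 against 0 at the third (at least 12.3-fold). Library B lay below library A at each of these 6 peaks on the scaled values. Summed over both genes there were 748 and 826 CLIP reads and 141 input reads, a mean fold of 3.33 (2.80 to 3.98). If reads of one gene were placed on the other in unequal shares between CLIP and input, the sum would hold where the single values would not, and this was not tested. With column totals the first peak of col-13 and the 3 peaks of col-12 had negative log2 values. The calls at the first peak of col-13 and the first and second of col-12 were lost with edgeR and TMM (adjusted p = 0.0794, 0.246 and 0.0782) and with DESeq2's test (0.128, 0.265 and 0.0578).

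The col peaks called lower than the input lay over col-181, col-143 and col-179. The third peak of col-181 on chromosome X (12105841 to 12106017) had 91 and 131 CLIP reads and 122 input reads, a mean fold of 0.525 (0.419 to 0.660, limma adjusted p = 0.00953). The second peak of col-143 on chromosome V (6836048 to 6836246) had 83 and 51 reads and 75 in the input, a mean fold of 0.571 (0.427 to 0.768, limma adjusted p = 0.0241). The first of col-179 on chromosome X (11201783 to 11201978) had 72 and 131 reads and 99 in the input, a mean fold of 0.574 (0.449 to 0.738, limma adjusted p = 0.0457). edgeR on the recovered reads kept the call at col-181 (adjusted p = 0.0137) and not at col-143 (0.0686) or col-179 (0.0637). The MSTR-1 list holds no peak with a mean fold under 0.5, so lower values could not be seen.

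The gene col-181 held a peak called higher and a peak called lower. Along the chromosome its first peak (12105055 to 12105301) had 46 and 76 reads and 11 in the input, a mean fold of 3.14 (1.70 to 6.46, limma adjusted p = 0.00163), and this call was lost with edgeR and TMM (adjusted p = 0.14) and with DESeq2's test (0.278). The second (12105479 to 12105824) had 376 and 465 reads and 260 in the input, a mean fold of 0.951 (0.826 to 1.10), and was not called. The third was the lower peak just given. Other peaks with low folds were not called, among them the second peak of col-142 (0.551), the third of col-143 (0.566), both peaks of col-101 (0.608 and 0.594) and the third of col-8 (0.624). Genes with a mean fold under 1 over all their peaks were col-143, col-101, col-179, col-119, col-8, col-98, col-42, col-80, col-103, col-184, col-181, col-142, col-20 and col-124. Of these, col-42 had 1 peak called higher beside its low sum.

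Col genes lay on each of the 6 chromosomes, and genes with a peak were 7 of 21 on chromosome I, 9 of 24 on II, 8 of 12 on III, 20 of 41 on IV, 22 of 31 on V and 13 of 27 on X. Genes within 10000 bases of each other formed 21 clusters with 50 genes. Every gene had a peak in 11 clusters, some did in 5 and none did in 5. The clusters without a peak were col-46 with col-47, col-50 with col-51, col-95 with col-96, col-126 with col-127 and col-9 with col-44. A limit of 20000 bases gave 23 clusters with 55 genes. Of the 79 genes with a peak, 35 lay in clusters and 44 outside.

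Neighbours often differed in fold. In the 14 clusters with peaks over at least 2 genes, the highest gene fold over the lowest had a median of 2.99 and reached 22.8, at col-117 and col-3. Those 2 genes together had a mean fold of 4.39 (3.79 to 5.10). In the cluster on chromosome III the mean folds were 22.0 for col-92, 1.92 for col-93 and 1.42 for col-94, and 1.83 (1.70 to 1.97) for their sum. Next to col-144 with 15.1 lay col-145 with 4.31 and col-10 with 3.18, and all 8 peaks of the 3 genes were called higher. Other pairs had lower folds with a narrower gap, though the counting intervals of the 2 genes did not overlap. The genes col-142 and col-143 had mean folds of 0.905 (0.735 to 1.12) and 0.593 (0.501 to 0.703). Their sum gave 0.705 (0.620 to 0.805). For col-178 and col-179 the mean folds were 1.11 (0.965 to 1.28) and 0.673 (0.597 to 0.759), with 0.843 (0.770 to 0.923) for their sum. The largest cluster, on chromosome X, ran from col-167 to col-171, and its 4 genes with peaks had mean folds of 3.99 for col-167, 3.30 for col-168, 2.42 for col-169 and 1.75 for col-170, with 10 of 16 peaks called higher. The fifth gene, col-171, had no peak. In the pair col-159 and col-160, where 3 peaks lie over both, the 3 peaks of col-159 alone were called higher and the 3 shared ones were not called.

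**Figure D3:**
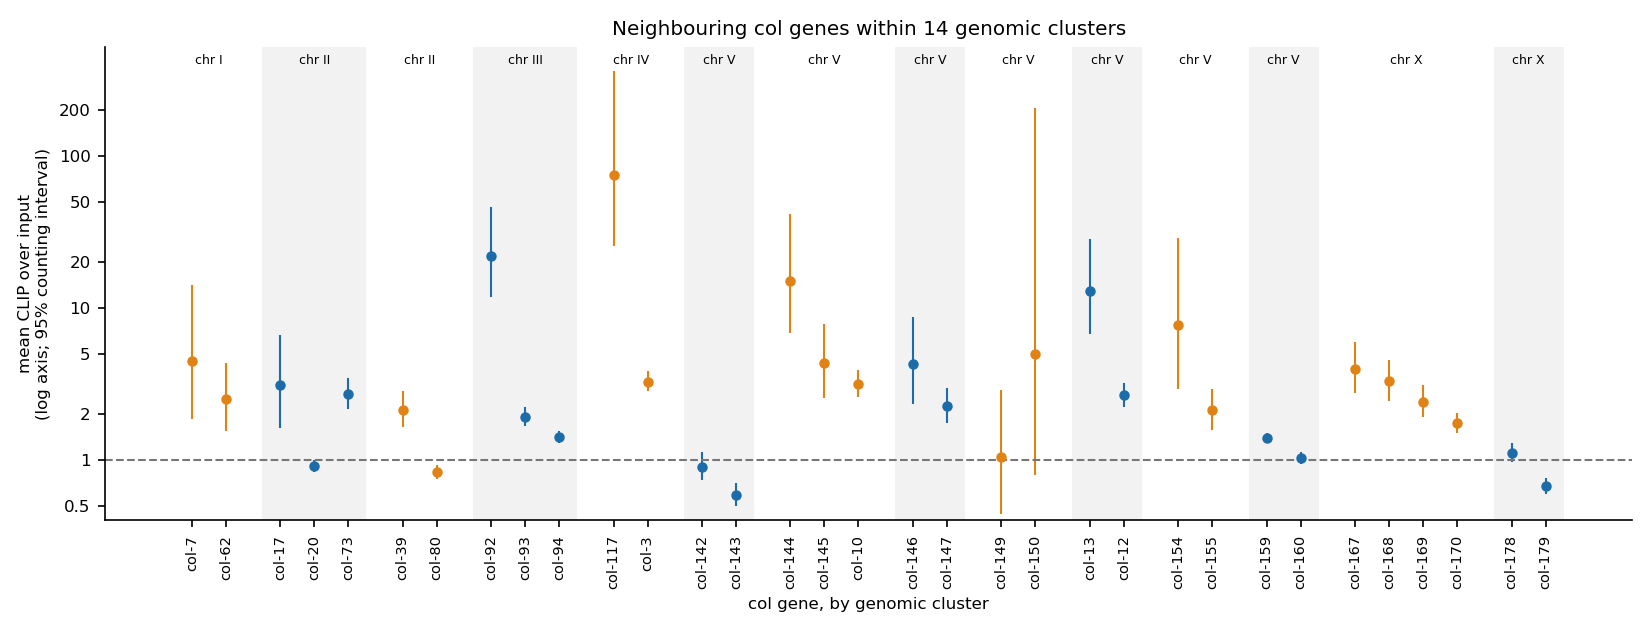
Mean fold of MSTR-1 CLIP over the input (log axis) for each col gene with a peak in the 14 genomic clusters that have at least 2 such genes, with bars for 95% intervals of counting error and shading for alternate clusters. The highest over the lowest gene fold of a cluster has a median of 2.99 and is widest at col-117 and col-3 (22.8); with column totals as the scale the values are lower and the middle col gene lies below the input.

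Folds also varied along the length of a gene. Among 57 col genes with at least 2 peaks over no other gene, the last peak along the listed strand had a higher log2 CLIP over input than the first in 43 (75.4%), with a median difference of 0.50. Among 451 other genes this held in 287 (63.6%), with a median of 0.29, so the order was shared with genes at large and the difference between the sets was not tested. In 37 col genes the last peak was the higher in both libraries and in 11 it was the lower in both. At col-13 the last peak had 53.3 mean scaled CLIP reads and 0 in the input, against 56.4 and 12.98 at the first. At col-20 the last had 34.1 mean scaled CLIP reads and 20.2 in the input, against 159.5 and 239 at the first. In 36 of the 57 genes the input was lower at the last peak than at the first, and in 31 the mean CLIP value was. The opposite order was clearest at col-144 and col-167, whose last peaks were lower by 3.40 and 3.21 on the log2 scale. Whether the listed strand is that of the transcript was not tested, since the gene table used gives no strand, so first and last are not called 5′ and 3′.

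**Figure D4:**
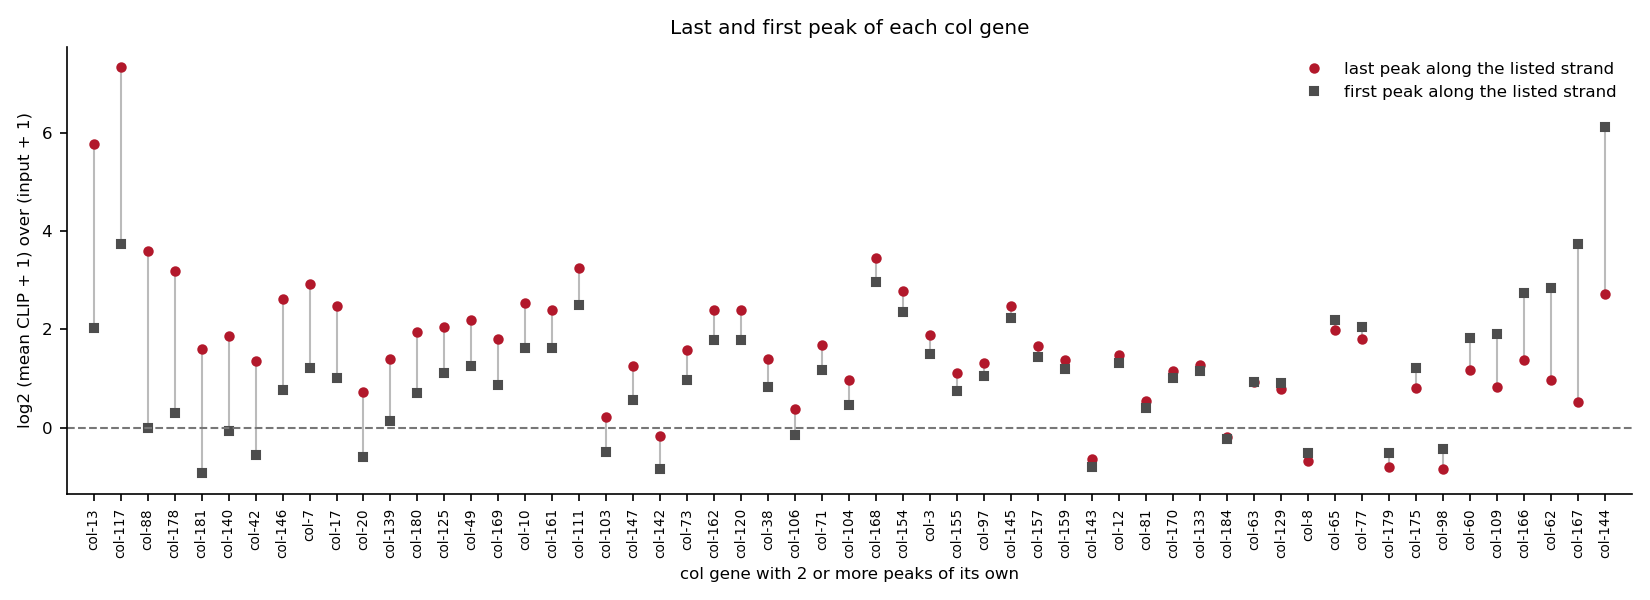
Log2 of mean MSTR-1 CLIP over input, with 1 scaled read added to both, at the last (circles) and the first (squares) peak along the listed strand of 57 col genes with at least 2 peaks over no other gene, in order of the difference. In 43 genes the last peak is the higher, and the widest gaps, of over 3 log2 units, come from genes where 1 of the peaks has 0 to 2 input reads; with column totals as the scale the points shift down.

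The CLIP libraries differed less at col peaks than at peaks at large. The median absolute log2 difference between libraries B and A was 0.31 over 210 col peaks and 0.48 over all peaks, and the libraries were at least 2-fold apart at 13 col peaks (6.19%), against 26.2% of all peaks. Col peaks were also deeper, and the part of depth in this was not tested. Library B was above library A at 57 of the 210. With its sign kept, the median log2 difference, B minus A, was -0.197 at col peaks and -0.020 over all peaks. Across these peaks, which share their libraries and are not independent, Pearson's r of the log2 values was 0.95. Among peaks with at least 50 CLIP reads, the widest gap was at the second peak of col-143, with 90.1 scaled reads in library A and 33.4 in library B against 108 in the input, so library B was the further below the input. The third peak of col-147 had 87.9 and 32.8 scaled reads (24.5 in the input), the second of col-169 46.7 and 21.0 (10.1 in the input), the second of col-107 123 and 57.0 (36.1 in the input) and the first of col-145 42.3 and 19.7 (5.77 in the input). At these 4 peaks both libraries lay above the input and each was called higher, but edgeR with TMM and DESeq2's test called none of them. edgeR with the authors' factors left out col-147 (adjusted p = 0.0541) and col-169 (0.0552). Among genes with few reads, col-41 had 14 reads (library A), 1 (library B) and 1 (input), and col-150 had 3, 17 and 1. Neither was called (limma adjusted p = 0.832 and 0.668). Others lay close together, such as col-34 with 8.69 and 7.21 scaled reads and col-154 with 44.52 and 44.55.

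The CLIP library of N2, a strain without the FLAG tag, shows what the immunoprecipitation recovers without tagged MSTR-1. Of the 210 col MSTR-1 peaks, 39 overlapped an N2 peak on the same strand (18.6%, exact 95% interval 13.6 to 24.5), against 8.75% of all MSTR-1 peaks. From the N2 side, 36 of 38 col N2 peaks overlapped an MSTR-1 peak. The same share over all 310 N2 peaks was not taken, so this count is not read as a trait of col peaks. Col peaks were 12.3% of the N2 list and 7.88% of the MSTR-1 list. By gene, 79 of 156 col genes (50.6%) had an MSTR-1 peak and 26 of the 156 an N2 peak, against 7.39% and 1.19% of protein-coding genes. Among reads inside N2 peaks other than ribosomal RNA, col peaks took 9.30% of those of N2 CLIP and 5.18% of the input's, and with ribosomal RNA kept 0.139% and 0.386%. N2 CLIP is 1 library, with no replicate check, and its folds were taken over the input of the tagged genotype.

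At shared col peaks the N2 fold was usually larger than the MSTR-1 mean fold on the authors' scaling and usually smaller with column totals. The folds are not fully alike, since the tables were scaled separately and each fold covers the span of its own peak. The N2 list also holds no fold under 1, while the MSTR-1 list does. An N2 peak over several MSTR-1 peaks was paired with each, giving 45 pairs, and the N2 fold was the higher at 37 (82.2%), against 79% of all 243 such pairs that have input reads on both sides. The median was 2.72 for MSTR-1 and 3.92 for N2. The 95% counting intervals were apart at 1 pair, with the N2 fold higher, where the N2 peak shared a small part of the third peak of col-63. With column totals as the scale the N2 fold was the higher at 11 of 45. That change of scale moves every pair by construction, and no count over all 243 pairs was taken on it. Of the 39 col peaks with an N2 peak, 28 were called higher than the input and 0 lower, and of the 171 without one, 85 and 3. The higher calls were 71.8% and 49.7% of these col peaks, against 45.9% of all MSTR-1 peaks with an N2 peak and 9.46% of all without one, where 0.429% and 1.89% were called lower.

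**Figure D5:**
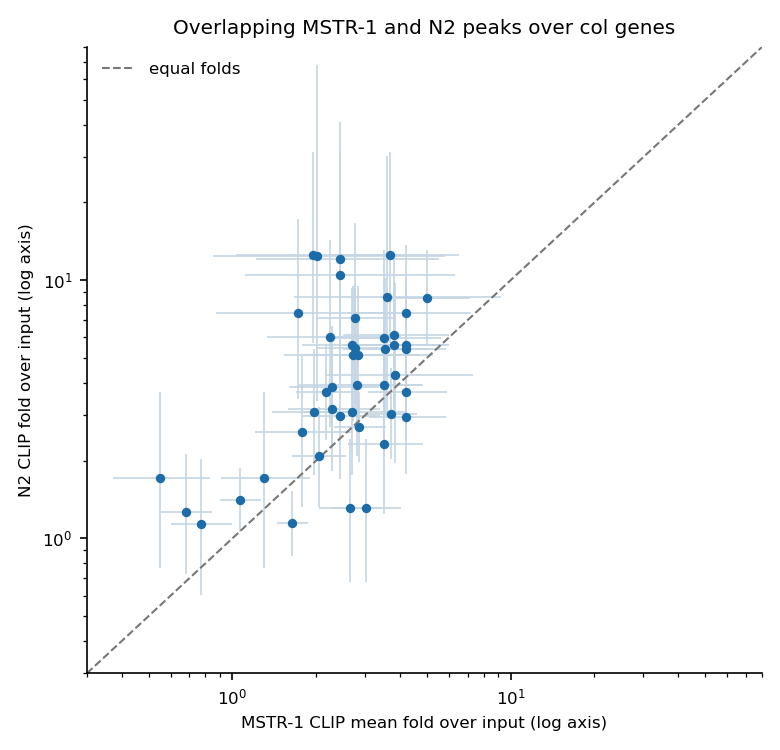
N2 CLIP fold over input (vertical, log axis) against MSTR-1 CLIP mean fold over input (horizontal, log axis) for 45 overlapping pairs of col peaks, with 95% counting intervals as pale lines. The N2 fold is the higher at 37 pairs on the authors' scaling and at 11 with column totals, a change of scale that moves every pair.

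The highest N2 folds at shared peaks were at col-63, col-175, col-49, col-91 and col-71. The second peak of col-63 had 83 and 121 MSTR-1 reads against 16 in the input (mean fold 3.67), and the N2 peak over it had 35 N2 reads against 8 in the input of that table (12.5, 5.71 to 31.3). The first peak of col-175 had 37 and 35 MSTR-1 reads against 9 in the input (2.43), and 21 N2 reads against 5 (12.03, 4.41 to 40.8). The second peak of col-49 had 26 and 32 MSTR-1 reads against 7 in the input (2.44), and 22 N2 reads against 6 (10.5, 4.13 to 31.7). At each of these the N2 value stood above the MSTR-1 value, with overlapping counting intervals. The deepest shared col peak in N2, the second of col-71, had 215 and 458 MSTR-1 reads against 37 in the input (4.999) and 95 N2 reads against 32 (8.50). Both peaks of col-3 were shared, with MSTR-1 mean folds of 3.71 and 2.85 and N2 folds of 3.04 and 2.70. At col-159 the N2 fold was the lower of the pair, 1.31 against MSTR-1 mean folds of 3.01 and 2.64 at the 2 peaks it overlaps.

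Of the col N2 peaks, 2 had no overlapping MSTR-1 peak, and neither had an input read. At col-123, which had no MSTR-1 peak, there were 15 N2 reads, at least 14.3-fold higher than 3 input reads. At col-34 there were 12, at least 11.5-fold higher, and that gene's MSTR-1 peak lies elsewhere in its span. The genes with the highest MSTR-1 folds, col-117, col-92, col-144 and col-13, had no N2 peak. An N2 peak needed at least 11 N2 reads to be listed, judged by the fewest in any, and 66 of the 171 col peaks without one would have given fewer than 11 if N2 had the MSTR-1 fold on the deposited size factors. Of the 39 col peaks with an N2 peak, 7 would have given fewer than 11 by the same reckoning and were still listed. At 23 of the 171 at least 50 reads would have been given, among them peaks of col-12, col-19, col-20, col-124, col-129, col-140 and col-181. Of these 23, 6 were called higher than the input and 5 had a mean fold under 1. The peaks of col-117, col-92, col-144 and col-13 were among neither the 66 nor the 23.

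Other genes of the collagen pathway were read beside the family. Of 19 body-shape cuticle collagens, whose mutants are short, long, blistered or coiled, 12 had MSTR-1 peaks. Of their 27 peaks 10 passed as higher (37.0%, against 12.7% of all peaks) and 0 as lower, with a median mean fold of 2.42. The gene sqt-3 had 95 and 163 CLIP reads and 19 input reads (mean fold 3.83, 2 of 2 peaks higher), and dpy-4 had 441 and 563 against 97 (3.03, 3 of 4 higher). Of 20 genes listed for collagen processing and cross-linking and matched in the gene table, 9 had peaks. Of their 28 peaks 1 was higher (3.57%, against 12.7% of all peaks) and 0 lower, with a median mean fold of 1.11. Not all of these genes encode such enzymes. The chaperone gene hsp-3 held 9 of the 28 peaks, with a mean fold of 0.804. The called peak was over cyn-5, a cyclophilin that turns prolyl bonds during folding. The gene pdi-2, which encodes the shared subunit of the prolyl 4-hydroxylases, had 260 and 340 reads and 155 in the input (1.13) and no call. Of 4 collagens outside the cuticle, let-2 and emb-9, the chains of basement membrane type IV collagen, had peaks. Of these 38 peaks 7 were higher (18.4%, against 12.7% of all peaks) and 0 lower, with a median mean fold of 1.69 against 1.48 over all peaks.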

How the data were processed

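The authors deposited 2 peak tables, for MSTR-1 CLIP and N2 CLIP, whose library columns hold a signal: reads per peak divided by a size factor. The tools named in the submitters' processing notes are STAR, cutadapt, deepTools and UMI-tools. Versions, peak caller, build and annotation are not given in the sources at hand. Column values were whole multiples of 1 step within 0.02 read for 100% of values, so reads were recovered. Reads in MSTR-1 peaks numbered 2438775 in library A, 3592308 in B and 408945 in the input, and in N2 peaks 934439 in N2 CLIP. The deposited MSTR-1 fold is the sum of both CLIP columns over the input. Mean folds here use their mean.

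Peaks were named by position with the WBcel235 gene table, on which 61 peaks covered 90% or more of a short RNA gene, and no shift gave over 27; piRNA genes and 3 col pseudogenes were left out. limma 3.58.1 in R 4.3.3 was fitted over all 2664 MSTR-1 peaks on log2(scaled reads + 1), which understates changes of low peaks, with a trend and Benjamini-Hochberg adjustment at 0.05. The fit gives the single input the spread of the CLIP libraries. edgeR 4.0.16 and DESeq2 1.42.0 on recovered reads, other scalings, pseudocounts and filters were alternatives. Fits were tested on simulated data. Intervals are exact (Clopper-Pearson), for counting error only; an input of 0 reads was set to 3 for a lower bound.

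The members, the lists of collagens and processing genes (cyp-9 was not matched) and the genes named were chosen with earlier results of these data known. Named were the 12 col genes with most CLIP reads, those with most peaks, the 8 highest and 8 lowest mean folds among peaks with at least 50 CLIP reads, peaks called lower, the 6 highest N2 folds, the 5 widest gaps between libraries, col-12, col-13, col-19, col-117, col-144 and col-181, cluster neighbours and up to 4 genes per list. Genes named beyond this (col-41, col-150, col-42, col-34, col-154) were chosen after their values were seen. A rule on near-identical proteins was not applied.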

Additional observations from a re-analysis of the deposited data

Results flagged for a closer look

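At 3 shared col peaks both MSTR-1 libraries lay below the input while N2 CLIP lay above it. At the second peak of col-142 there were 29 and 49 MSTR-1 reads against 40 in the input (mean fold 0.551), and the N2 fold was 1.72, from 12 N2 reads against 20 in the input of that table, with a counting interval of 0.766 to 3.69. That N2 peak also overlaps the third peak of col-142, which had 69 and 103 MSTR-1 reads against 38 (1.30). At the third peak of col-42 there were 107 and 216 MSTR-1 reads against 131 (0.682), and the N2 fold was 1.26, from 22 reads against 50. At the second peak of col-98 there were 74 and 166 MSTR-1 reads against 85 (0.771), and the N2 fold was 1.13, from 17 reads against 43. The difference between MSTR-1 and N2 was not tested, since N2 is 1 library, and the N2 list holds no peak with a fold under 1.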

How the results depend on the processing

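Pseudocounts of 0.5 and 4, a minimum of 20 reads and peaks over no other gene left the count of higher col peaks between 88 and 114, and TMM and DESeq2 scalings in limma gave 86 and 82. The count was 97 with edgeR (46.2%, against 10.5% of all peaks) and 39 with edgeR and TMM, added after seeing the data (18.6%, against 4.43%). It was 11 with column totals (5.24%, against 2.14%) and 33 with DESeq2's test (15.7%, against 3.57%). Without a trend, limma called 0 higher and 0 lower, with 78 col peaks and 380 of all peaks at an unadjusted p under 0.05. Lower col peaks numbered 27 with TMM (12.9%, against 9.05% of all peaks), 23 with DESeq2's scaling (10.95%, against 7.47%) and 105 with column totals (50%, against 51.1%). They numbered 1 with edgeR (0.476%, against 1.24%), 15 with edgeR and TMM (7.14%, against 5.63%) and 9 with DESeq2's test (4.29%, against 3.49%). At deposited folds of at least 2 or 4 there were 0 lower calls among col peaks and among all peaks. Those cuts drop every peak whose mean CLIP value is below the input, so this 0 follows from the filter. Col calls were 97.4% higher in the main scaling (87.8% of all calls), 76.1% with TMM (49.5%), 78.1% with DESeq2's scaling (53.5%) and 9.48% with column totals (4.02%). The median col gene (1.34) was 0.93 with TMM, 0.97 with DESeq2's scaling and -0.67 with column totals. It was 1.13 with a pseudocount of 4 and 1.12 to 1.35 with a single CLIP library. Keeping only peaks whose deposited fold reached 4 gave 1.80 for col genes, but also 1.61 for all genes with a peak. The middle col gene then stood only 0.18 above that of all genes, against 0.74 with every peak kept and 0.46 with a cut of 2. Shared col peaks numbered 17 when the deposited fold of both lists had to reach 4, where fewer peaks remain. The N2 fold was the higher at 20 of 20 pairs there. That cut asks for an N2 fold of 4 but, since the deposited MSTR-1 fold sums both libraries, for a mean fold of only 2. It thus favours the N2 side by construction, and no conclusion is drawn from the 20 of 20. Column totals gave 11 of 45. Log2 values turned negative with column totals at col-107 peak 2 (-0.85), col-147 peak 3 (-0.93), col-13 peak 1 (-0.0025), col-12 peaks 1 to 3 (-0.78, -0.71 and -0.60), col-169 peak 2 (-0.43), col-181 peak 1 (-0.42) and col-19 peaks 1 and 2 (-1.997 and -1.95). The uncalled col-19 peaks were also negative with TMM (-0.36 and -0.30), DESeq2's scaling (-0.33 and -0.27), edgeR with TMM (-0.36 and -0.30) and DESeq2's test (-0.33 and -0.27). At col-181 peak 2 library A alone gave 0.12. A change of scale moves all peaks of a library by construction; the cause of the other changes was not tested. Input depth limits what can be seen: 10 col peaks had no input read. No paired analysis was possible because the library columns carry no replicate numbers and the input and N2 have 1 library each. Counts with 1 CLIP library left out could not be tested, since no residual degrees of freedom remain.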
